A study of Mus musculus with 8 samples.

Results

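Whether the transcriptional response to the CREB inhibitor 666-15 depended on genotype was asked in cells of polycystic and normal mouse kidneys. For each gene the response was the log2 fold change of inhibitor over vehicle within 1 genotype, and the interaction was the response in ADPKD cells minus the response in WT cells, so a positive interaction means that the inhibitor moved the gene further up, or less far down, in ADPKD cells. The genes described are all 16841 autosomal genes that passed a filter on low counts, out of 50167 autosomal genes and 55304 genes in the count table, and no measured response was used to choose them. Genes of the sex chromosomes were left out because 1 library came from a female.

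RNA was measured in Dolichos biflorus agglutinin (DBA)-positive cells freshly isolated from mouse kidney, in 4 groups of 2 libraries. Inhibitor-treated ADPKD cells came from mice that model autosomal dominant polycystic kidney disease and received 666-15 at 5 mg/kg, and vehicle-treated ADPKD cells from such mice that received DMSO. Inhibitor-treated WT cells and vehicle-treated WT cells came from wild-type mice given the same agents. All mice were dosed once daily for 5 days followed by 2 days of rest, starting at postnatal day 11 and going on for 3 weeks. The gene altered in the ADPKD mice is not given by the labels. Nor do they say if replicate libraries are of different animals, which is clear for inhibitor-treated WT cells alone, whose libraries differ in sex. Elsewhere the p-values may measure technical spread.

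CREB is a transcription factor that protein kinase A phosphorylates when cyclic AMP rises. It binds the cAMP response element (CRE) in promoters and recruits CRTC and CBP/p300 coactivators. In polycystic kidneys cyclic AMP signalling in tubule cells promotes fluid secretion and proliferation, and DBA is a lectin that binds collecting duct cells, a common source of cysts.

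Library totals ran from 15108793 to 19702638 counts. Inhibitor-treated WT replicate 2 differs from the other 7 libraries in sex: Xist had 17688 counts in it and at most 8 elsewhere, and of the Y-linked genes Uty, Kdm5d, Eif2s3y and Ddx3y it had 0. Named genes whose call changes without that library, and list counts that it moves by over 1.5 times, are given both ways. Collecting duct markers were present in every library, but so were those of other segments: the 24 proximal tubule markers summed to 0.0679% and 0.0708% of all counts in inhibitor-treated and 0.0205% and 0.0278% in vehicle-treated ADPKD libraries, against 0.899% and 0.979% in inhibitor-treated and 2.59% and 2.296% in vehicle-treated WT libraries. In bulk RNA, fewer cells of a type and less RNA per cell cannot be told apart, and this holds for every marker list below.

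The inhibitor moved gene expression in both genotypes, and the 2 responses correlated weakly across all genes tested. Of the 2503 genes called in both, 1764 moved the same way and 739 in opposite directions. In ADPKD cells 6946 of 16841 autosomal genes (41.2%) passed at an edgeR adjusted p of 0.05, 3685 up (21.9%) and 3261 down (19.4%). In WT cells 4303 (25.6%) passed, 2329 up (13.8%) and 1974 down (11.7%). The SD of the response across genes was 1.14 in ADPKD cells and 0.864 in WT cells on the log2 scale. Across the 16841 genes the response in ADPKD cells correlated with that in WT cells at Pearson 0.203 and Spearman 0.216, and 58.1% of genes had the same sign. No library enters both responses, but genes are not independent replicates and these are descriptions without a test. The correlation was 0.152 without inhibitor-treated WT replicate 2.

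The interaction passed for 4475 genes (26.6%), 2261 positive (13.4%) and 2214 negative (13.1%). Of these, 2474 (14.7%) had an interaction of at least 2-fold, 1291 positive (7.67%) and 1183 negative (7.02%). Called interactions fell into 5 kinds by whether each response passed on its own. In 2198 genes (49.1% of calls) the response passed in ADPKD cells alone, 1164 up and 1034 down. In 932 (20.8%) it passed in WT cells alone, 555 up and 377 down. In 739 (16.5%) both responses passed in opposite directions, 472 up in ADPKD and down in WT cells and 267 down in ADPKD and up in WT cells. In 386 (8.63%) both passed in the same direction, 238 of them larger in ADPKD and 148 larger in WT cells. In the other 220 (4.92%) neither response passed alone. Conversely, 2503 genes responded in both genotypes, and for 1378 of the 1764 that moved the same way the interaction did not pass, which does not show that their responses were equal.

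**Figure D1:**
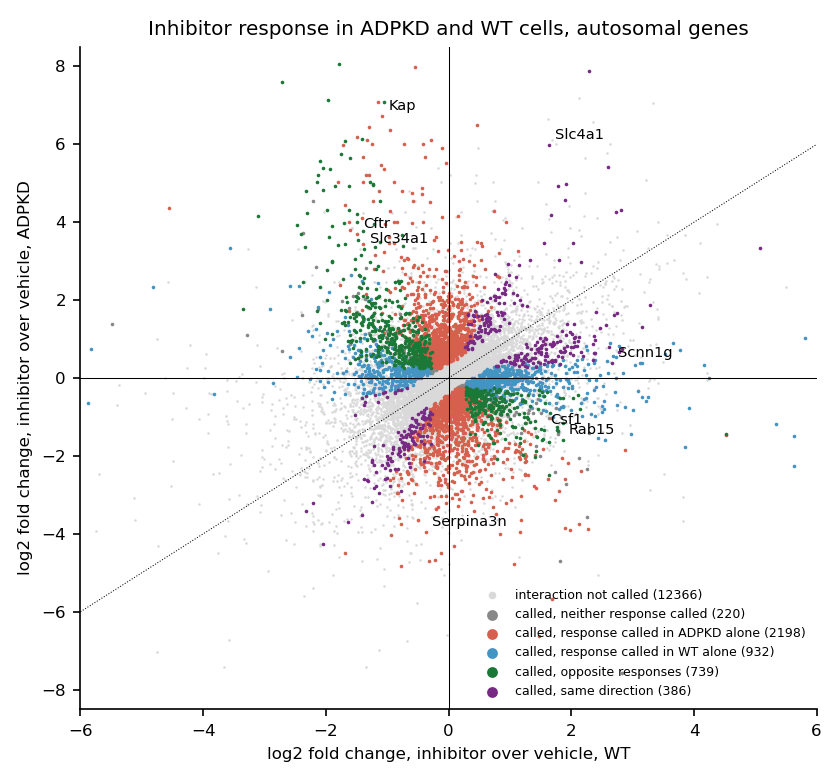
Log2 fold change of inhibitor over vehicle in ADPKD cells (vertical axis) against WT cells (horizontal axis) for the 16841 autosomal genes, 9 of which lie outside the axes. Colours give the kind of called interaction and the dotted line marks equal responses. The 739 genes with opposite responses fill the upper left and lower right of the plot.

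The chance to call an interaction rose with expression. It passed for 4.6% of 2568 genes with a mean under 1 CPM (counts scaled to library size), 14.3% of 3428 at 1 to 5 CPM, 26.1% of 3549 at 5 to 20 CPM, 36.3% of 4973 at 20 to 100 CPM and 48.8% of 2323 at 100 CPM or more. An interaction that missed the threshold in a low gene is not thereby shown to be absent. Every count of called list members below is to be read against the 13.4% positive and 13.1% negative calls over all autosomal genes. The lists were not matched for expression, with which these shares rise.

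Proximal tubule genes, which serve the bulk reabsorption of the filtrate, rose in ADPKD cells and fell in WT cells, with the highest median interaction of the 38 lists. Of the 24 proximal tubule markers, all autosomal and tested, 17 had a positive and 0 a negative called interaction, with a median of 2.96 against -0.03 over all autosomal genes. In ADPKD cells 16 rose and 2 fell (median response 1.51), whereas in WT cells none rose and 17 fell (median -1.31), so that 14 of the 17 called members had opposite responses. Slc34a1, the sodium-phosphate cotransporter of the proximal tubule (GRCm38 chromosome 13, 55398187 to 55415592), had 41.4 and 41.9 CPM in inhibitor-treated and 4.46 and 3.91 CPM in vehicle-treated ADPKD cells, against 1376 and 1494 CPM in inhibitor-treated and 3501 and 3967 CPM in vehicle-treated WT cells. The groups do not overlap within either genotype, and the ADPKD level with the inhibitor remained far below both WT levels. Its response was 3.31 ± 0.13 in ADPKD and -1.38 ± 0.10 in WT cells, and the interaction 4.69 ± 0.16 (edgeR adjusted p = 9.38e-09).

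Other proximal tubule genes followed the same course. Acsm2, which encodes a medium-chain acyl-CoA synthetase, had 13.1 and 15.6 CPM with the inhibitor and 1.97 and 1.63 CPM with vehicle in ADPKD cells, and 272 and 344 CPM with the inhibitor and 1093 and 1201 CPM with vehicle in WT cells, with an interaction of 4.89 ± 0.22 (adjusted p = 2.06e-07). Slc13a1, a sodium-sulphate cotransporter, had 20.6 and 26.1 CPM with the inhibitor and 5.14 and 6.57 CPM with vehicle in ADPKD cells, and 140.5 and 132 CPM with the inhibitor and 265 and 272 CPM with vehicle in WT cells. Its interaction was 2.97 ± 0.19 (adjusted p = 1.97e-06). Cubn, the endocytic receptor cubilin, had 10.1 and 9.84 CPM with the inhibitor and 3.32 and 3.85 CPM with vehicle in ADPKD cells, and 110.5 and 142 CPM with the inhibitor and 362 and 302 CPM with vehicle in WT cells. Its interaction was 2.87 ± 0.22 (adjusted p = 6.23e-06). In all of these the inhibitor and vehicle libraries do not overlap in either genotype. They were picked for the smallest interaction p in the list, so this separation adds no support. Cyp2j5, a cytochrome P450 of the kidney, and Pdxk, pyridoxal kinase, were among the opposite responses with the smallest interaction p, at 5.69 ± 0.26 (adjusted p = 2.89e-07) and 2.81 ± 0.15 (adjusted p = 3.94e-07).

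The largest positive interactions were of the same type. Of the 12 named by size, 11 passed in both genotypes with opposite signs. Most were nearly silent in vehicle-treated ADPKD cells, so their size rests on low counts. Ugt3a2, a UDP-glycosyltransferase, had 13.8 and 16.2 CPM in inhibitor-treated and 0.0519 and 0.38 CPM in vehicle-treated ADPKD cells, against 121 and 109 CPM in inhibitor-treated and 445 and 292 CPM in vehicle-treated WT cells. Its interaction was 7.77 ± 0.52 (adjusted p = 3.99e-05). Hao2, a peroxisomal hydroxy acid oxidase, had 10.3 and 7.94 CPM in inhibitor-treated and 0.0519 and 0.326 CPM in vehicle-treated ADPKD cells, against 73.7 and 49.3 CPM in inhibitor-treated and 327 and 199 CPM in vehicle-treated WT cells. Its interaction was 7.66 ± 0.76 (adjusted p = 0.000875). Kap, the kidney androgen-regulated protein of the mouse proximal tubule, had 169.99 and 202 CPM in inhibitor-treated and 1.25 and 2.28 CPM in vehicle-treated ADPKD cells, against 2327 and 1322 CPM in inhibitor-treated and 4995 and 2724 CPM in vehicle-treated WT cells; its interaction was 7.80 ± 0.75 (adjusted p = 0.00209) while its WT response did not pass (-1.08 ± 0.42, adjusted p = 0.137). Acmsd, an enzyme of tryptophan catabolism, had 1.63 and 1.76 CPM in inhibitor-treated and 0.104 and 0 CPM in vehicle-treated ADPKD cells, against 19.9 and 32.8 CPM in inhibitor-treated and 102 and 116 CPM in vehicle-treated WT cells. Its interaction was 6.86 ± 0.72 (adjusted p = 8.85e-05). Ugt2b38, Ugt3a1, Slc22a29 and Slc22a22 had 0 counts in both vehicle-treated ADPKD libraries. Against a floor of 3 counts over that group, Ugt2b38 was 24.6-fold and Ugt3a1 12.9-fold higher with the inhibitor in ADPKD cells. Slc22a29 was 12.5-fold higher and Slc22a22, whose inhibitor-treated ADPKD libraries had only 0.1302 and 0.271 CPM, 2.505-fold. Counts of the inhibitor-treated libraries were taken as observed, so these ratios are not lower bounds. Ugt and Slc22 genes have close paralogs, and the treatment of reads that map to several of them is not given in the sources used here.

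Markers of the thick ascending limb and the distal tubule also had positive interactions. Of 11 thick ascending limb markers 10 passed upward and none downward (median 1.64); 7 rose in ADPKD and 6 fell in WT cells. Egf, the growth factor made in the thick ascending limb (GRCm38 chromosome 3, 129677565 to 129755316), had 11.8 and 12.1 CPM in inhibitor-treated and 4.46 and 3.58 CPM in vehicle-treated ADPKD cells, against 1141 and 1554 CPM in inhibitor-treated and 2426 and 2161 CPM in vehicle-treated WT cells. Its interaction was 2.34 ± 0.23 (adjusted p = 3.99e-05). Its 4 groups do not overlap. Kcnj1, the ROMK potassium channel, had 25.6 and 34.8 CPM with the inhibitor and 6.796 and 8.903 CPM with vehicle in ADPKD cells, and 131 and 149 CPM with the inhibitor and 151 and 146 CPM with vehicle in WT cells. Its interaction was 2.02 ± 0.22 (adjusted p = 6.92e-05), and the response passed in ADPKD cells alone. Cldn10, a claudin of paracellular sodium transport, showed the converse, with 8.2 and 9.37 CPM with the inhibitor and 7.99 and 7.87 CPM with vehicle in ADPKD cells, and 27.7 and 40.04 CPM with the inhibitor and 94.5 and 98.3 CPM with vehicle in WT cells. Its interaction was 1.65 ± 0.24 (adjusted p = 0.000391). The summed share of this list moved less than its median: 0.03804% and 0.0468% in inhibitor-treated and 0.0367% and 0.0368% in vehicle-treated ADPKD libraries, against 0.323% and 0.428% in inhibitor-treated and 0.722% and 0.7102% in vehicle-treated WT libraries.

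Of 11 tested distal convoluted and connecting tubule markers 9 had a positive and none a negative interaction (median 1.28). The calcium genes Trpv5, an apical calcium channel, and Slc8a1, a sodium-calcium exchanger, responded in ADPKD cells alone. Trpv5 (GRCm38 chromosome 6, 41652173 to 41680769) had 245 and 246 CPM in inhibitor-treated and 65.4 and 65.6 CPM in vehicle-treated ADPKD cells, against 57.5 and 51.6 CPM in inhibitor-treated and 54.04 and 49.7 CPM in vehicle-treated WT cells. Its interaction was 1.83 ± 0.14 (adjusted p = 6.1e-06). Its inhibitor-treated ADPKD libraries stand above all 6 others. Slc8a1 had 98.9 and 102 CPM with the inhibitor and 15.8 and 16.6 CPM with vehicle in ADPKD cells, and 69.4 and 101 CPM with the inhibitor and 128 and 89.5 CPM with vehicle in WT cells. Its interaction was 2.98 ± 0.28 (adjusted p = 7.52e-05). Slc12a3, the thiazide-sensitive sodium-chloride cotransporter, fell in WT cells alone, with 26.4 and 25.99 CPM with the inhibitor and 25.7 and 24.5 CPM with vehicle in ADPKD cells, and 713 and 811 CPM with the inhibitor and 1849 and 1709.8 CPM with vehicle in WT cells. Its interaction was 1.28 ± 0.14 (adjusted p = 5.29e-05). Trpm6, a magnesium channel, rose in ADPKD and fell in WT cells, with 111 and 99.1 CPM with the inhibitor and 73.6 and 58.7 CPM with vehicle in ADPKD cells, and 27.2 and 25.4 CPM with the inhibitor and 72.3 and 68.8 CPM with vehicle in WT cells. Its interaction was 2.09 ± 0.18 (adjusted p = 9.2e-06). Without inhibitor-treated WT replicate 2 the counts of positive calls stayed at 17 for proximal tubule, 10 for thick ascending limb and 9 for distal markers.

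**Figure D2:**
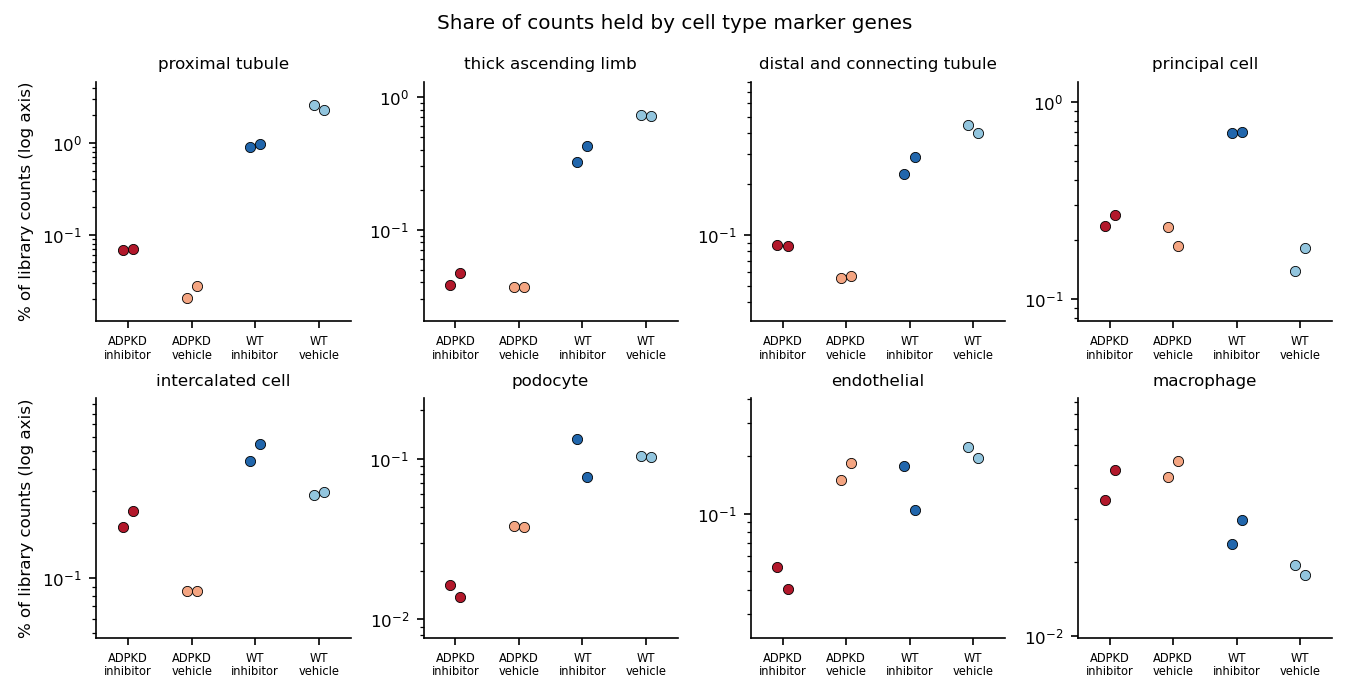
Share of library counts (percent, log axis) held by 8 lists of cell type markers in each of the 8 libraries, 2 points a group. Proximal tubule markers were at 0.0679% and 0.0708% in inhibitor-treated and 0.0205% and 0.0278% in vehicle-treated ADPKD libraries, while in WT libraries the inhibitor-treated pair lies below the vehicle-treated pair; principal cell markers show a wide gap between treatments in WT libraries and a narrow one in ADPKD libraries.

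Principal cells reabsorb sodium and water, and all 13 tested principal cell markers rose in WT cells (median response 2.1). In ADPKD cells 8 rose and 1 fell (median 0.45), and 8 of 13 interactions passed, all negative (median -1.29). Scnn1g, the gamma subunit of the epithelial sodium channel (GRCm38 chromosome 7, 121734479 to 121768475), had 166 and 159 CPM in inhibitor-treated and 128 and 123 CPM in vehicle-treated ADPKD cells, against 384 and 409 CPM in inhibitor-treated and 52.8 and 72.2 CPM in vehicle-treated WT cells. It rose in both genotypes, by 0.38 ± 0.13 in ADPKD (adjusted p = 0.0288) and 2.67 ± 0.13 in WT cells (adjusted p = 2.65e-07), with an interaction of -2.29 ± 0.18 (adjusted p = 7.13e-06). Scnn1a, the alpha subunit, had 303 and 281 CPM with the inhibitor and 404 and 284 CPM with vehicle in ADPKD cells, and 655 and 646 CPM with the inhibitor and 216 and 246 CPM with vehicle in WT cells. Its interaction was -1.73 ± 0.20 (adjusted p = 0.000134). Aqp3, a basolateral water channel, fell in ADPKD and rose in WT cells, with 371 and 452 CPM with the inhibitor and 686 and 494 CPM with vehicle in ADPKD cells, and 1079 and 919 CPM with the inhibitor and 244 and 302 CPM with vehicle in WT cells. Its interaction was -2.39 ± 0.25 (adjusted p = 0.000147). St6gal1, a sialyltransferase, was at -1.23 ± 0.17 (adjusted p = 0.000244).

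Intercalated cells secrete acid or base, and their markers rose in both genotypes. Of 18 tested, 14 rose in ADPKD (median response 1.59) and 11 in WT cells (median 0.92), and none fell in either. The interaction was positive for 6 and negative for 2; without inhibitor-treated WT replicate 2 it was positive for 10 and negative for 0, and 1 was negative in 5 of the 7 other fits that leave out 1 library. Slc4a1, the anion exchanger AE1, had 10.02 and 14.5 CPM in inhibitor-treated and 0.104 and 0.271 CPM in vehicle-treated ADPKD cells, against 175 and 212 CPM in inhibitor-treated and 54.2 and 70.2 CPM in vehicle-treated WT cells. Its interaction was 4.35 ± 0.48 (adjusted p = 0.000128). Its inhibitor-treated libraries are higher in both genotypes, and the vehicle-treated ADPKD libraries are close to 0. Aqp6, an intracellular water channel, had 122 and 150 CPM with the inhibitor and 13.2 and 11.6 CPM with vehicle in ADPKD cells, and 323 and 397 CPM with the inhibitor and 82.8 and 93.3 CPM with vehicle in WT cells. Its interaction was 1.43 ± 0.19 (adjusted p = 0.000225). Rhcg, an ammonia channel, went the other way (-1.63 ± 0.33, adjusted p = 0.0111), but did not pass without inhibitor-treated WT replicate 1 (adjusted p = 0.0944) or replicate 2 (adjusted p = 0.0694).

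Among the 267 genes with responses in the opposite sense, down in ADPKD and up in WT cells, Csf1, Ptges, Rab15 and Sphk1 had the smallest interaction p at 5 CPM or more. Csf1, the macrophage growth factor (GRCm38 chromosome 3, 107741048 to 107760469), had 409 and 401 CPM in inhibitor-treated and 1075 and 972 CPM in vehicle-treated ADPKD cells, against 652 and 638 CPM in inhibitor-treated and 200.1 and 239 CPM in vehicle-treated WT cells. It fell by 1.34 on the log2 scale in ADPKD cells and rose by 1.56 in WT cells, an interaction of -2.89 ± 0.15 (adjusted p = 3.24e-07), and with the inhibitor its level was lower in ADPKD than in WT cells, the reverse of the order with vehicle. Rab15, a small GTPase of endocytic recycling (GRCm38 chromosome 12, 76797960 to 76822908), had 101 and 84.1 CPM in inhibitor-treated and 304 and 252 CPM in vehicle-treated ADPKD cells, against 51.7 and 44.03 CPM in inhibitor-treated and 12.4 and 13.9 CPM in vehicle-treated WT cells. Its interaction was -3.45 ± 0.19 (adjusted p = 5.89e-07). Ptges, a prostaglandin E synthase, had 271 and 295 CPM with the inhibitor and 399 and 413 CPM with vehicle in ADPKD cells, and 528 and 492 CPM with the inhibitor and 144 and 144 CPM with vehicle in WT cells. Its interaction was -2.34 ± 0.13 (adjusted p = 5.89e-07). Sphk1, sphingosine kinase, had 98.1 and 112 CPM with the inhibitor and 210.2 and 222 CPM with vehicle in ADPKD cells, and 134 and 133 CPM with the inhibitor and 55.6 and 53.2 CPM with vehicle in WT cells. Its interaction was -2.34 ± 0.14 (adjusted p = 1.13e-06). In each of these 4 genes the libraries of the 2 treatments do not overlap in either genotype. They were picked for called responses in both genotypes, so this separation adds no support.

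Of 30 tested cytokine and NF-kB genes, 11 had a negative and 2 a positive interaction (median -0.69); 13 rose in WT cells, and in ADPKD cells 9 rose and 7 fell. The positive count ran from 0 without vehicle-treated ADPKD replicate 1 to 4 without vehicle-treated ADPKD replicate 2, and was 1 without inhibitor-treated WT replicate 2, either inhibitor-treated ADPKD library or vehicle-treated WT replicate 1. Lif, leukaemia inhibitory factor, rose in both, with 3244 and 3460.4 CPM with the inhibitor and 1782 and 2234 CPM with vehicle in ADPKD cells, and 1732 and 1397 CPM with the inhibitor and 184 and 255 CPM with vehicle in WT cells. Its interaction was -2.09 ± 0.24 (adjusted p = 0.000214). Cxcl16, a transmembrane chemokine, rose in WT cells alone (-1.46 ± 0.20, adjusted p = 0.000324). Tnfrsf12a, the receptor of TWEAK, fell in both and further in ADPKD cells, with 387 and 394 CPM with the inhibitor and 1263 and 1250.04 CPM with vehicle in ADPKD cells, and 564 and 482 CPM with the inhibitor and 615 and 665 CPM with vehicle in WT cells. Its interaction was -1.40 ± 0.14 (adjusted p = 2.44e-05).

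Genes of cell junctions rose in WT cells, and some fell in ADPKD cells. Of 22 tested cadherin, claudin and polarity genes 16 rose in WT and 8 in ADPKD cells, 4 fell in ADPKD cells, and the interaction was negative for 11 and positive for 2. Cldn4 had 9412 and 9733 CPM with the inhibitor and 12107 and 12245 CPM with vehicle in ADPKD cells, and 8546 and 7786 CPM with the inhibitor and 2401 and 2989.7 CPM with vehicle in WT cells. Its interaction was -1.95 ± 0.15 (adjusted p = 7.11e-06). Cldn3 had 245 and 289.9 CPM with the inhibitor and 357 and 402 CPM with vehicle in ADPKD cells, and 157 and 139 CPM with the inhibitor and 30.1 and 42.4 CPM with vehicle in WT cells. Its interaction was -2.54 ± 0.22 (adjusted p = 2.05e-05). Both encode barrier claudins, and both fell in ADPKD and rose in WT cells. Cldn7 had 556 and 632 CPM with the inhibitor and 587 and 596 CPM with vehicle in ADPKD cells, and 596 and 475 CPM with the inhibitor and 179 and 193 CPM with vehicle in WT cells, with a called response in WT cells alone (-1.52 ± 0.16, adjusted p = 4.34e-05).

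Among genes that responded in WT cells alone, those with the smallest interaction p at 5 CPM or more included Krt18 and Krt7 on the rising side and Spink1 and Khk on the falling side. Krt18, a simple-epithelium keratin (GRCm38 chromosome 15, 102028180 to 102032027), had 2788 and 3182 CPM in inhibitor-treated and 3281 and 3197 CPM in vehicle-treated ADPKD cells, against 1470.3 and 1371 CPM in inhibitor-treated and 419 and 427 CPM in vehicle-treated WT cells. It rose in WT cells (1.75 ± 0.10, adjusted p = 3.33e-07), while its ADPKD libraries lie close together between treatments, above every WT library (-0.12 ± 0.09, adjusted p = 0.341), with an interaction of -1.87 ± 0.13 (adjusted p = 3.56e-06). Krt7, another simple keratin, had 1631 and 1649.97 CPM with the inhibitor and 1491 and 1453 CPM with vehicle in ADPKD cells, and 836 and 903 CPM with the inhibitor and 193 and 230.1 CPM with vehicle in WT cells. Its interaction was -1.88 ± 0.14 (adjusted p = 5.47e-06). Coro2a, a coronin, and Cdc42ep1, an effector of the GTPase Cdc42, were at -2.46 ± 0.19 and -1.71 ± 0.15. On the falling side Spink1, a secreted trypsin inhibitor, had 5.27 and 5.63 CPM with the inhibitor and 4.25 and 5.43 CPM with vehicle in ADPKD cells, and 72.3 and 60.1 CPM with the inhibitor and 246 and 269.6 CPM with vehicle in WT cells. Its interaction was 2.13 ± 0.21 (adjusted p = 2.44e-05). Khk, the ketohexokinase that phosphorylates fructose, had 12.8 and 14.2 CPM with the inhibitor and 12.5 and 13.2 CPM with vehicle in ADPKD cells, and 104 and 96.5 CPM with the inhibitor and 288 and 264 CPM with vehicle in WT cells. Its interaction was 1.53 ± 0.16 (adjusted p = 2.82e-05).

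Genes that fell in ADPKD cells alone included stress and growth arrest genes. Cdkn1a, the p21 inhibitor of cyclin-dependent kinases and a p53 target (GRCm38 chromosome 17, 29090976 to 29100727), had 454 and 437 CPM in inhibitor-treated and 1338 and 1165 CPM in vehicle-treated ADPKD cells, against 336 and 295 CPM in inhibitor-treated and 326 and 315 CPM in vehicle-treated WT cells. Its vehicle-treated ADPKD libraries stand above the other 6, and the interaction was -1.47 ± 0.14 (adjusted p = 2.21e-05). Bbc3, the pro-apoptotic p53 target PUMA, had 12.4 and 8.55 CPM with the inhibitor and 80.8 and 58.6 CPM with vehicle in ADPKD cells, and 10.4 and 8.48 CPM with the inhibitor and 9.51 and 9.63 CPM with vehicle in WT cells. Its interaction was -2.71 ± 0.30 (adjusted p = 6.01e-05). Gadd45g, a stress-induced growth arrest gene, had 201 and 208 CPM with the inhibitor and 771 and 649 CPM with vehicle in ADPKD cells, and 259.9 and 265 CPM with the inhibitor and 249.8 and 241 CPM with vehicle in WT cells. Its interaction was -1.89 ± 0.14 (adjusted p = 4.89e-06). Gdf15, a stress-induced cytokine, had opposite responses, with 686 and 806 CPM with the inhibitor and 1137 and 1619.5 CPM with vehicle in ADPKD cells, and 792 and 685 CPM with the inhibitor and 232 and 238 CPM with vehicle in WT cells. Its interaction was -2.54 ± 0.22 (adjusted p = 2.65e-05). Of 21 tested p53 response genes 8 had a negative and 1 a positive interaction (median -0.43), with 9 negative and 0 positive without inhibitor-treated WT replicate 2. Hr, a corepressor of nuclear receptors, Ubtd1, a ubiquitin-domain protein, and Nudt18, a nucleotide hydrolase, also fell in ADPKD cells alone, with interactions of -2.76 ± 0.24, -1.86 ± 0.18 and -3.12 ± 0.24. Serpina3n, a secreted protease inhibitor, fell in ADPKD cells alone, with 3.12 and 4.07 CPM with the inhibitor and 41.1 and 70.1 CPM with vehicle, against 0.928 and 1.27 CPM with the inhibitor and 1.74 and 1.06 CPM with vehicle in WT cells (-3.58 ± 0.55, adjusted p = 0.000749).

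Most listed genes of the integrated stress response, in which the transcription factor ATF4 acts, fell in ADPKD cells. Of 22 tested genes 17 fell and none rose in ADPKD cells (median -0.79), while 5 fell and 7 rose in WT cells (median 0.1). The interaction was negative for 12 and positive for 2. Ddit3, the transcription factor CHOP, had 42.9 and 47.6 CPM with the inhibitor and 131 and 119 CPM with vehicle in ADPKD cells, and 137 and 125 CPM with the inhibitor and 72.4 and 92.97 CPM with vehicle in WT cells. Its interaction was -2.13 ± 0.18 (adjusted p = 8.77e-06). Ppp1r15a, which restores translation by dephosphorylating eIF2 alpha, had 409.7 and 453 CPM with the inhibitor and 780.3 and 829.5 CPM with vehicle in ADPKD cells, and 489.7 and 577 CPM with the inhibitor and 294 and 337 CPM with vehicle in WT cells. Its interaction was -1.66 ± 0.16 (adjusted p = 1.74e-05). Trib3, a pseudokinase target of CHOP, fell in ADPKD cells alone (-1.41 ± 0.16, adjusted p = 5.29e-05). Of 20 endoplasmic reticulum chaperone genes 3 passed, all negative (15%, against 13.1% over all autosomal genes). That count was not stable. Without inhibitor-treated WT replicate 2, 4 were positive and 1 was negative. The negative count was 0 without either inhibitor-treated ADPKD library or without vehicle-treated WT replicate 1, 1 without vehicle-treated ADPKD replicate 1, 5 without vehicle-treated WT replicate 2 and 6 without inhibitor-treated WT replicate 1.

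NRF2 target genes fell in both genotypes and further in ADPKD cells. Of 17 tested 11 fell in ADPKD and 11 in WT cells, with medians of -0.9 and -0.57, and 9 interactions were negative and 2 positive. Osgin1, an oxidative stress-induced growth inhibitor, had 64.8 and 56.4 CPM with the inhibitor and 449 and 462 CPM with vehicle in ADPKD cells, and 148 and 170.4 CPM with the inhibitor and 277 and 272 CPM with vehicle in WT cells. Its interaction was -2.13 ± 0.15 (adjusted p = 2.67e-06). Ftl1, ferritin light chain, had 577 and 543 CPM with the inhibitor and 1826 and 1719 CPM with vehicle in ADPKD cells, and 801 and 728 CPM with the inhibitor and 1091 and 1172 CPM with vehicle in WT cells. Its interaction was -1.10 ± 0.13 (adjusted p = 0.000101). Srxn1, sulfiredoxin, fell in ADPKD cells alone (-0.99 ± 0.14, adjusted p = 0.000354). Gsta2, a glutathione transferase also expressed in proximal tubule, had a positive interaction (1.82 ± 0.27, adjusted p = 0.000839).

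Cytosolic ribosomal protein genes were the list with the most negative calls. Of 75 tested 60 had a negative and none a positive interaction, and the called values ran from -1.34 to -0.41. In ADPKD cells 67 fell (median -0.91), and in WT cells 21 fell and 6 rose (median -0.2). Their summed share of counts was 1.98% and 2.21% in inhibitor-treated and 4.03% and 3.49% in vehicle-treated ADPKD libraries, against 1.63% and 1.52% in inhibitor-treated and 1.85% and 1.85% in vehicle-treated WT libraries. The vehicle-treated ADPKD libraries thus stand apart from the other 6. Rps19, of the small subunit, had 171 and 177 CPM with the inhibitor and 664 and 561 CPM with vehicle in ADPKD cells, and 134 and 121 CPM with the inhibitor and 196 and 205 CPM with vehicle in WT cells. Its interaction was -1.16 ± 0.15 (adjusted p = 0.000137). Rpl18, of the large subunit, had 274 and 297 CPM with the inhibitor and 608 and 545 CPM with vehicle in ADPKD cells, and 289 and 254 CPM with the inhibitor and 252 and 254 CPM with vehicle in WT cells. Its interaction was -1.11 ± 0.14 (adjusted p = 0.000144). The count of negative calls was 37 without inhibitor-treated ADPKD replicate 1. Ribosomal protein genes have many pseudogenes, with which reads may be shared.

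Cell cycle genes rose in ADPKD cells alone. Of 22 tested mitosis genes 17 rose in ADPKD cells (median 1.6) and none in WT cells (median -0.36, 1 lower), and 15 interactions passed, all positive. Top2a, topoisomerase II alpha, had 24.01 and 23.7 CPM in inhibitor-treated and 3.89 and 2.93 CPM in vehicle-treated ADPKD cells, against 4.705 and 11.9 CPM in inhibitor-treated and 9.36 and 11.5 CPM in vehicle-treated WT cells. Its interaction was 3.13 ± 0.50 (adjusted p = 0.0013). The inhibitor-treated ADPKD libraries are the highest, and the inhibitor-treated WT libraries differ between themselves by more than any other pair. Kif11, a spindle kinesin, had 11.5 and 9.57 CPM with the inhibitor and 1.71 and 1.85 CPM with vehicle in ADPKD cells, and 2.12 and 4.81 CPM with the inhibitor and 5.08 and 5.67 CPM with vehicle in WT cells. Its interaction was 3.19 ± 0.49 (adjusted p = 0.000522). Cdk1, the mitotic kinase, had 7.22 and 10.04 CPM with the inhibitor and 0.882 and 1.9 CPM with vehicle in ADPKD cells, and 2.32 and 3.0997 CPM with the inhibitor and 3.24 and 4.25 CPM with vehicle in WT cells. Its interaction was 3.09 ± 0.54 (adjusted p = 0.00122). The list's summed share was 0.0208% and 0.0195% in inhibitor-treated and 0.00754% and 0.00793% in vehicle-treated ADPKD libraries, against 0.00631% and 0.0126% in inhibitor-treated and 0.0111% and 0.0128% in vehicle-treated WT libraries. Of 21 DNA replication genes 7 were positive and 1 negative (8 and 0 without inhibitor-treated WT replicate 2), with Pole, the catalytic subunit of DNA polymerase epsilon, at 2.77 ± 0.52 (adjusted p = 0.00186).

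Among the other genes that rose in ADPKD cells alone, some came close to their WT level or above it. Lmo7, an adaptor of cell junctions (GRCm38 chromosome 14, 101729957 to 101934710), had 703 and 733 CPM in inhibitor-treated and 217 and 222 CPM in vehicle-treated ADPKD cells, against 435 and 403 CPM in inhibitor-treated and 467 and 469.6 CPM in vehicle-treated WT cells. Its interaction was 1.87 ± 0.13 (adjusted p = 2.34e-06). Clmn, calmin, had 85.6 and 81.8 CPM with the inhibitor and 14.6 and 17.8 CPM with vehicle in ADPKD cells, and 114 and 133 CPM with the inhibitor and 107 and 101 CPM with vehicle in WT cells. Its interaction was 2.12 ± 0.17 (adjusted p = 7.73e-06). Ppt1, a lysosomal thioesterase, had 55.3 and 62.03 CPM with the inhibitor and 14.3 and 15.7 CPM with vehicle in ADPKD cells, and 56.3 and 63.1 CPM with the inhibitor and 76.7 and 66.3 CPM with vehicle in WT cells. Its interaction was 2.23 ± 0.18 (adjusted p = 7.73e-06). In each the vehicle-treated ADPKD libraries are the lowest of the 8. Of 30 primary cilium genes 18 rose in ADPKD and 2 in WT cells, and 8 interactions passed, all positive. The share called was 26.7%, near the 26.6% over all autosomal genes, of which 13.4% were positive. The count was not stable over the fits that leave out 1 library.

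**Figure D3:**
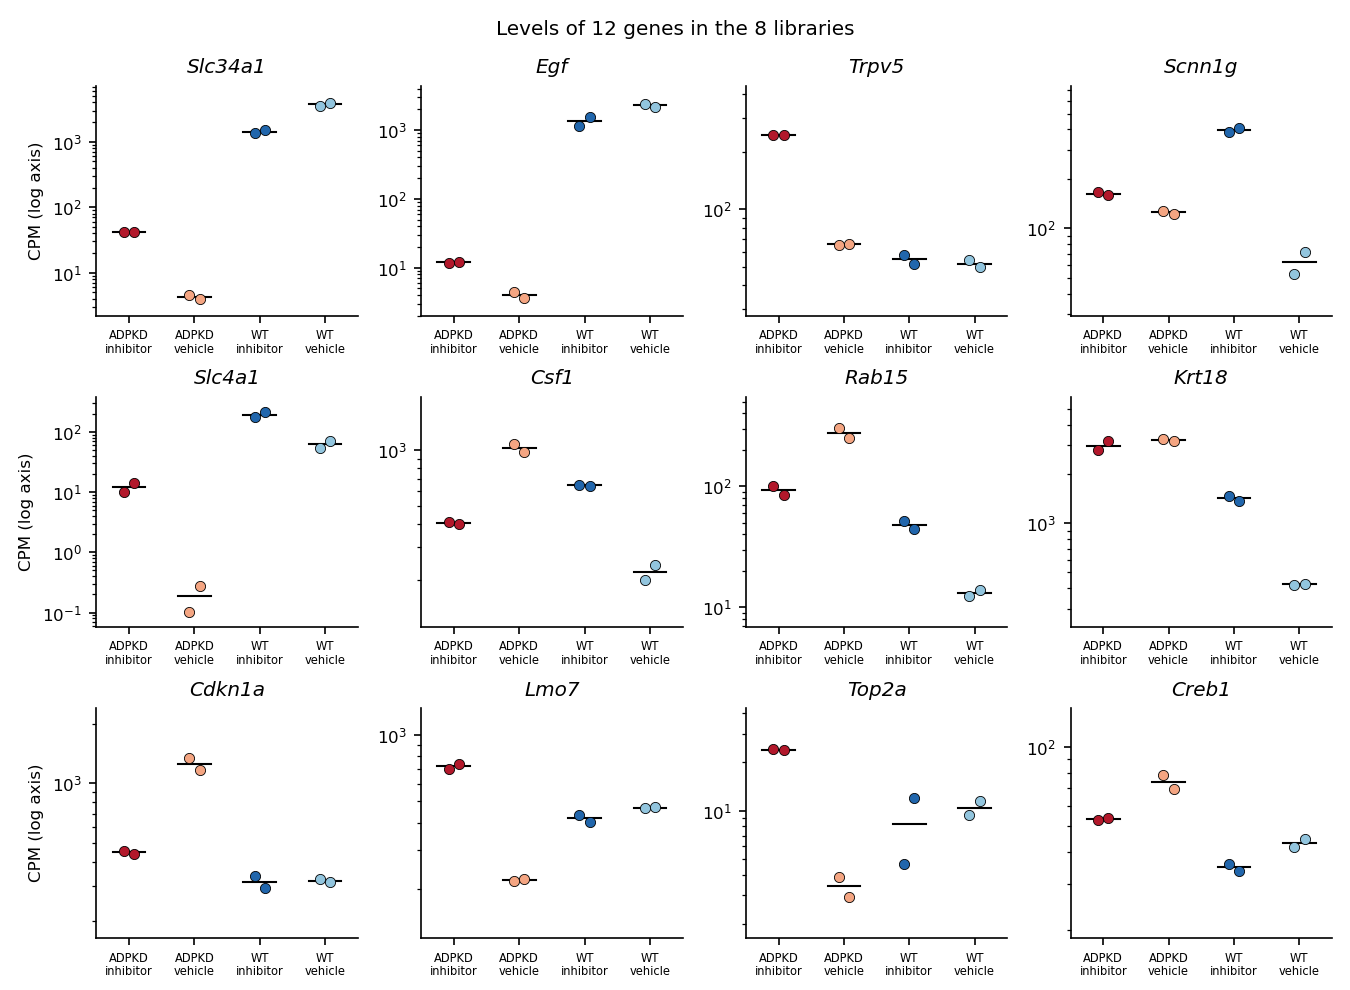
Levels of 12 genes in CPM (log axis, a scale for each gene) in the 8 libraries, 2 points a group with a bar at their mean. Slc34a1 and Egf are higher with the inhibitor in ADPKD and lower in WT cells, Csf1 and Rab15 the reverse, Scnn1g and Krt18 differ between treatments mainly in WT cells, and Cdkn1a, Lmo7 and Top2a mainly in ADPKD cells. Creb1 shows no called interaction.

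Interferon-stimulated genes rose in ADPKD cells. Of 27 tested 20 rose and 1 fell in ADPKD cells, 3 rose and 4 fell in WT cells, and 14 interactions were positive and none negative (median 0.73). Gbp2, a guanylate-binding protein, had 59.9 and 71.3 CPM with the inhibitor and 22.1 and 24.3 CPM with vehicle in ADPKD cells, and 119 and 92.4 CPM with the inhibitor and 161 and 142 CPM with vehicle in WT cells. Its interaction was 2.02 ± 0.20 (adjusted p = 2.42e-05). Rsad2, the antiviral enzyme viperin, had 84.9 and 84.3 CPM with the inhibitor and 41.8 and 57.7 CPM with vehicle in ADPKD cells, and 127 and 126 CPM with the inhibitor and 201 and 197 CPM with vehicle in WT cells. Its interaction was 1.42 ± 0.18 (adjusted p = 0.000146). Ifi44 was at 2.88 ± 0.33 (adjusted p = 6.01e-05). Samd9l, another interferon-induced gene, rose in both genotypes and further in ADPKD cells (1.66 ± 0.16, adjusted p = 2.21e-05).

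Called interactions of mitochondrial energy genes were all positive. Of 31 nuclear-encoded oxidative phosphorylation genes 22 fell and none rose in WT cells, 11 rose and 5 fell in ADPKD cells, and 16 interactions were positive and none negative. The positive count was 9 without inhibitor-treated ADPKD replicate 2, 10 without vehicle-treated ADPKD replicate 2 or vehicle-treated WT replicate 1, and 25 with a transcript length trend removed. Sdhc, of succinate dehydrogenase, had 71.3 and 81.1 CPM with the inhibitor and 46.1 and 51.8 CPM with vehicle in ADPKD cells, and 139 and 156 CPM with the inhibitor and 236 and 232 CPM with vehicle in WT cells. Its interaction was 1.31 ± 0.15 (adjusted p = 7.89e-05). Of 19 fatty acid oxidation genes 11 were positive and none negative (median 0.64). Hadh, a mitochondrial hydroxyacyl-CoA dehydrogenase, had 54.5 and 69.6 CPM with the inhibitor and 26.7 and 25.9 CPM with vehicle in ADPKD cells. In WT cells it had 139 and 166 CPM with the inhibitor and 305 and 286 CPM with vehicle. Its interaction was 2.19 ± 0.18 (adjusted p = 8.35e-06). Of 20 cholesterol synthesis genes 7 were positive and 1 negative, with Hmgcs1, which makes HMG-CoA, at 1.46 ± 0.21 (adjusted p = 0.000386). Glycolysis depended on the processing, with 3 positive and 6 negative calls among 14 genes around a median interaction of 0.09 in the reported fit, and 6 positive and 3 negative calls with a GC trend removed; the positive count was 1 without either inhibitor-treated ADPKD library, either vehicle-treated WT library or inhibitor-treated WT replicate 1, and 5 with the length trend removed. Hk1, hexokinase, and Slc2a1, the glucose transporter GLUT1, were negative at -1.09 ± 0.12 (adjusted p = 4.92e-05) and -1.36 ± 0.16 (adjusted p = 9.19e-05), and Slc2a1 had 2284 and 2559.5 CPM with the inhibitor and 2339.5 and 2517 CPM with vehicle in ADPKD cells, and 3102 and 2503 CPM with the inhibitor and 1037 and 1149.97 CPM with vehicle in WT cells. Proximal tubule markers moved in the same direction as these mitochondrial lists, and their part in the result was not tested.

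Endothelial markers fell in ADPKD cells, and several macrophage markers rose in WT cells. All 16 endothelial markers fell in ADPKD cells and 2 fell in WT cells, and 11 interactions were negative, but this count was unstable, from 1 without inhibitor-treated ADPKD replicate 2 to 15 without inhibitor-treated WT replicate 2, and 5 with a GC trend removed; it was 6 without inhibitor-treated ADPKD replicate 1 or vehicle-treated ADPKD replicate 1, 4 without vehicle-treated WT replicate 1 and 2 without vehicle-treated ADPKD or vehicle-treated WT replicate 2. Their share of counts was 0.0525% and 0.0402% in inhibitor-treated and 0.1498% and 0.185% in vehicle-treated ADPKD libraries, against 0.178% and 0.104% in inhibitor-treated and 0.224% and 0.195% in vehicle-treated WT libraries. Plvap, a protein of endothelial fenestrae, had 48.1 and 47.4 CPM with the inhibitor and 137 and 179 CPM with vehicle in ADPKD cells, and 72.6 and 46.1 CPM with the inhibitor and 79.3 and 65.8 CPM with vehicle in WT cells. Its interaction was -1.43 ± 0.30 (adjusted p = 0.00789), against -0.78 with the GC trend removed (adjusted p = 0.0498), and it did not pass once that fit was also blocked by replicate (adjusted p = 0.0715). Of 18 macrophage markers 7 rose in WT cells, 3 rose and 3 fell in ADPKD cells, and 8 interactions were negative and 1 positive. C1qa, of the complement C1q complex, had 11.6 and 15 CPM with the inhibitor and 21.5 and 24.4 CPM with vehicle in ADPKD cells, and 1.66 and 4.93 CPM with the inhibitor and 0.498 and 0.6497 CPM with vehicle in WT cells. Its interaction was -3.31 ± 0.61 (adjusted p = 0.00267). Lyz2, the lysozyme of myeloid cells, had 40.3 and 60.1 CPM with the inhibitor and 70.7 and 73.9 CPM with vehicle in ADPKD cells, and 11.99 and 20.4 CPM with the inhibitor and 2.94 and 4.13 CPM with vehicle in WT cells. Its interaction was -2.73 ± 0.40 (adjusted p = 0.00131). The macrophage share was 0.0357% and 0.0477% in inhibitor-treated and 0.0444% and 0.0519% in vehicle-treated ADPKD libraries, against 0.0237% and 0.0298% in inhibitor-treated and 0.0195% and 0.0176% in vehicle-treated WT libraries. No lymphocyte or neutrophil marker passed among 7 tested.

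Of the genes the inhibitor is aimed at, Creb1 (GRCm38 chromosome 1, 64532645 to 64604548) had 53.04 and 53.96 CPM in inhibitor-treated and 78.6 and 69.3 CPM in vehicle-treated ADPKD cells, against 35.98 and 33.7 CPM in inhibitor-treated and 41.6 and 44.7 CPM in vehicle-treated WT cells. Its response was -0.47 ± 0.11 in ADPKD and -0.31 ± 0.12 in WT cells, and the interaction of -0.16 ± 0.16 did not pass (adjusted p = 0.512), although it did with the GC trend removed (-0.53, adjusted p = 0.0472). Neither Crem (-0.31 ± 0.16, adjusted p = 0.184) nor Atf1 (-0.07 ± 0.15, adjusted p = 0.777), its closest relatives, passed, although Crem, like Creb1, did so in that GC fit (-0.56, adjusted p = 0.034). RNA levels do not measure the activity of these proteins. In the list of the CREB family, its coactivators and the cAMP pathway 37.9% of members were called. The share was 26.6% over all autosomal genes and 36.3% over those at 20 to 100 CPM, and the list was not matched for level. Of 29 genes of the CREB family, its coactivators and the cAMP pathway 9 were negative and 2 positive, with 4 negative without inhibitor-treated ADPKD replicate 2 or vehicle-treated WT replicate 1. The positive count was 4 without inhibitor-treated WT replicate 2 and 1 without inhibitor-treated ADPKD replicate 2 or vehicle-treated ADPKD replicate 1. Gnas, the stimulatory G protein subunit that activates adenylyl cyclase, fell in both genotypes and further in ADPKD cells, with 30.5 and 30.8 CPM with the inhibitor and 126 and 122 CPM with vehicle in ADPKD cells, and 42.1 and 35.1 CPM with the inhibitor and 67.1 and 66.2 CPM with vehicle in WT cells. Its interaction was -1.22 ± 0.16 (adjusted p = 0.000172). Creb3l1, a membrane-bound relative of CREB, fell in ADPKD and rose in WT cells (-1.85 ± 0.21, adjusted p = 6.31e-05).

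Genes known to be induced by cAMP and CREB did not share a direction. Of 27 tested 5 rose and 8 fell in ADPKD cells, 9 rose and 4 fell in WT cells, and 9 interactions were negative and 3 positive (median -0.31). The positive count was 1 without inhibitor-treated WT replicate 2 or inhibitor-treated ADPKD replicate 2. Vgf, a neuropeptide precursor, had 85.4 and 96.6 CPM with the inhibitor and 377 and 327 CPM with vehicle in ADPKD cells, and 3.38 and 4.18 CPM with the inhibitor and 4.33 and 5.08 CPM with vehicle in WT cells. Its interaction was -1.64 ± 0.21 (adjusted p = 0.00016). Egr1, an immediate early transcription factor, had 641 and 524 CPM with the inhibitor and 1091 and 1056 CPM with vehicle in ADPKD cells, and 945 and 949.9 CPM with the inhibitor and 709 and 767 CPM with vehicle in WT cells. Its interaction was -1.24 ± 0.15 (adjusted p = 9.11e-05). Nr4a1, an orphan nuclear receptor, had 237 and 223 CPM with the inhibitor and 323 and 415 CPM with vehicle in ADPKD cells, and 259.6 and 178 CPM with the inhibitor and 145 and 131 CPM with vehicle in WT cells. Its interaction was -1.35 ± 0.25 (adjusted p = 0.0034). Both fell in ADPKD and rose in WT cells. Egr1 is also on a list of 24 genes that tissue dissociation induces, of which 10 were negative and 1 positive (12 and 2 without inhibitor-treated WT replicate 2, 6 and 2 with the GC trend removed) and whose part in the result was not tested.

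Polycystin genes showed small differences. Pkd1, mutated in most human ADPKD, had 48.9 and 38.5 CPM with the inhibitor and 73.6 and 70.3 CPM with vehicle in ADPKD cells, and 69.04 and 50.7 CPM with the inhibitor and 68.4 and 63.8 CPM with vehicle in WT cells, and its interaction did not pass (-0.58 ± 0.22, adjusted p = 0.0685). With the GC trend removed it was at -0.15 and did not pass (edgeR adjusted p = 0.621). It did pass with the length trend removed (edgeR adjusted p = 0.0145) and in the blocked fit by replicate number (adjusted p = 0.0284). The same held without a filter on low counts (adjusted p = 0.0237) and without inhibitor-treated WT replicate 2 (-0.76). Over the fits that leave out 1 library the interaction of Pkd1 ran from -0.76 to -0.32. Pkd2 had 216 and 210.5 CPM with the inhibitor and 189.97 and 166 CPM with vehicle in ADPKD cells, and 165 and 184 CPM with the inhibitor and 185 and 208 CPM with vehicle in WT cells and passed narrowly (0.43 ± 0.15, adjusted p = 0.0485), a call kept in 2 of 8 fits that leave out 1 library, those without vehicle-treated ADPKD replicate 1 and without inhibitor-treated WT replicate 2. Pkhd1, the gene of recessive polycystic kidney disease, rose in ADPKD cells alone, with 343 and 319 CPM with the inhibitor and 127 and 114 CPM with vehicle in ADPKD cells, and 205 and 299 CPM with the inhibitor and 213 and 211 CPM with vehicle in WT cells. Its interaction was 1.21 ± 0.21 (adjusted p = 0.00184). Cftr, the chloride channel of cyst fluid secretion, had 36.8 and 37.2 CPM in inhibitor-treated and 1.04 and 4.72 CPM in vehicle-treated ADPKD cells, against 21.1 and 12.5 CPM in inhibitor-treated and 45.6 and 49.3 CPM in vehicle-treated WT cells. Its interaction was 5.19 ± 0.76 (adjusted p = 0.00516). The response passed in ADPKD (3.69 ± 0.58, adjusted p = 0.00389) and not in WT cells (-1.50 ± 0.49, adjusted p = 0.0792). Vegfa, the endothelial growth factor, fell in ADPKD cells alone, with 343 and 297 CPM with the inhibitor and 960.4 and 842 CPM with vehicle in ADPKD cells, and 466 and 397 CPM with the inhibitor and 403 and 374 CPM with vehicle in WT cells. Its interaction was -1.65 ± 0.16 (adjusted p = 2.18e-05). Fgfr1, a fibroblast growth factor receptor, fell in ADPKD and rose in WT cells (-1.75 ± 0.14, adjusted p = 7.73e-06). Havcr1, the injury marker KIM-1, went against most of the 20 injury genes, of which 11 were negative and 3 positive, with 7 negative without either inhibitor-treated ADPKD library or either vehicle-treated WT library; it rose in ADPKD and fell in WT cells, with 30.4 and 37.6 CPM with the inhibitor and 12.7 and 12.4 CPM with vehicle in ADPKD cells, and 1.99 and 1.202 CPM with the inhibitor and 5.18 and 4.73 CPM with vehicle in WT cells. Its interaction was 3.08 ± 0.33 (adjusted p = 4.28e-05).

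Promoters were searched for the palindromic CRE, TGACGTCA, and its shorter core TGACG on both strands, in RefSeq windows from 250 bases before to 50 bases after the transcription start (GRCm38.p6), which were at hand for 14834 promoters of 11637 tested autosomal genes. The CRE was in 2.82% of all these promoters, in 2.13% of 2211 promoters of genes with a positive interaction, in 3.08% of 2207 with a negative one and in 2.92% of 10416 not called. The core, which every CRE contains, was in 28.5%, 25.5%, 30.8% and 28.7% of the same sets. Median promoter GC was 58.67% in the positive and 62.33% in the negative set. These shares are descriptions of letters in a window, not of binding. Among 157 genes that could be named and had a promoter at hand, a CRE was found in 5. The search of named genes left out some, so 5 is a minimum. Among those left out were Egr1, Crem and Spink1, which all lie on the same autosome. Egr1 and Crem are on the list of genes induced by cAMP and CREB. The number found was not tested against the 2.82% of all promoters. The interaction of the 5 genes found was negative, in Flt1 at -0.94 and in Tra2a at -0.82. Genes that could be named were mostly picked by their interaction, and whether a CRE goes with its sign was not tested. Flt1 lost its call without inhibitor-treated ADPKD replicate 2, vehicle-treated ADPKD replicate 2 or vehicle-treated WT replicate 2. Promoters of the other 3, chosen after their values were seen, are shown in transcript direction with the CRE in capitals: Ppp1r15a (chr7:45526219-45526518, minus strand) had opposite responses, Cldn7 (chr11:69965171-69965470, plus strand) rose in WT cells alone, and Rpl18 (chr7:45717821-45718120, plus strand) fell in ADPKD cells alone.
Ppp1r15a: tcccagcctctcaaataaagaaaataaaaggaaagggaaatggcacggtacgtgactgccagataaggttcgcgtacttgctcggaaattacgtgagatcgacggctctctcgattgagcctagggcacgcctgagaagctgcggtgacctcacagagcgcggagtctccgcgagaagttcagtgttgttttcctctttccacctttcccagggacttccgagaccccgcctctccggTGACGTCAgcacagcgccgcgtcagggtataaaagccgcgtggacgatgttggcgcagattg
Cldn7: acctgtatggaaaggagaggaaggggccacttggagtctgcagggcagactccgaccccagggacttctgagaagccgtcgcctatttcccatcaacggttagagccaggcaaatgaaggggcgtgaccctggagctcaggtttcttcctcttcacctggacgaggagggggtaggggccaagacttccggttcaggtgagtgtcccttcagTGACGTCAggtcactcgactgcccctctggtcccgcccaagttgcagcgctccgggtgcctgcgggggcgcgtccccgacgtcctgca
Rpl18: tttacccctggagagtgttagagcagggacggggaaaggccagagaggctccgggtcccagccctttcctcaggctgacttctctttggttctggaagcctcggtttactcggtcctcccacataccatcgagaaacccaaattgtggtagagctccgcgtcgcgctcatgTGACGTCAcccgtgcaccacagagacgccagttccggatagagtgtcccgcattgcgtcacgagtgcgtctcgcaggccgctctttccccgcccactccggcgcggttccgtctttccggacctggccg
The motif begins 12 bases before the start in Ppp1r15a, 38 before it in Cldn7 and 79 before it in Rpl18.

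**Figure D4:**
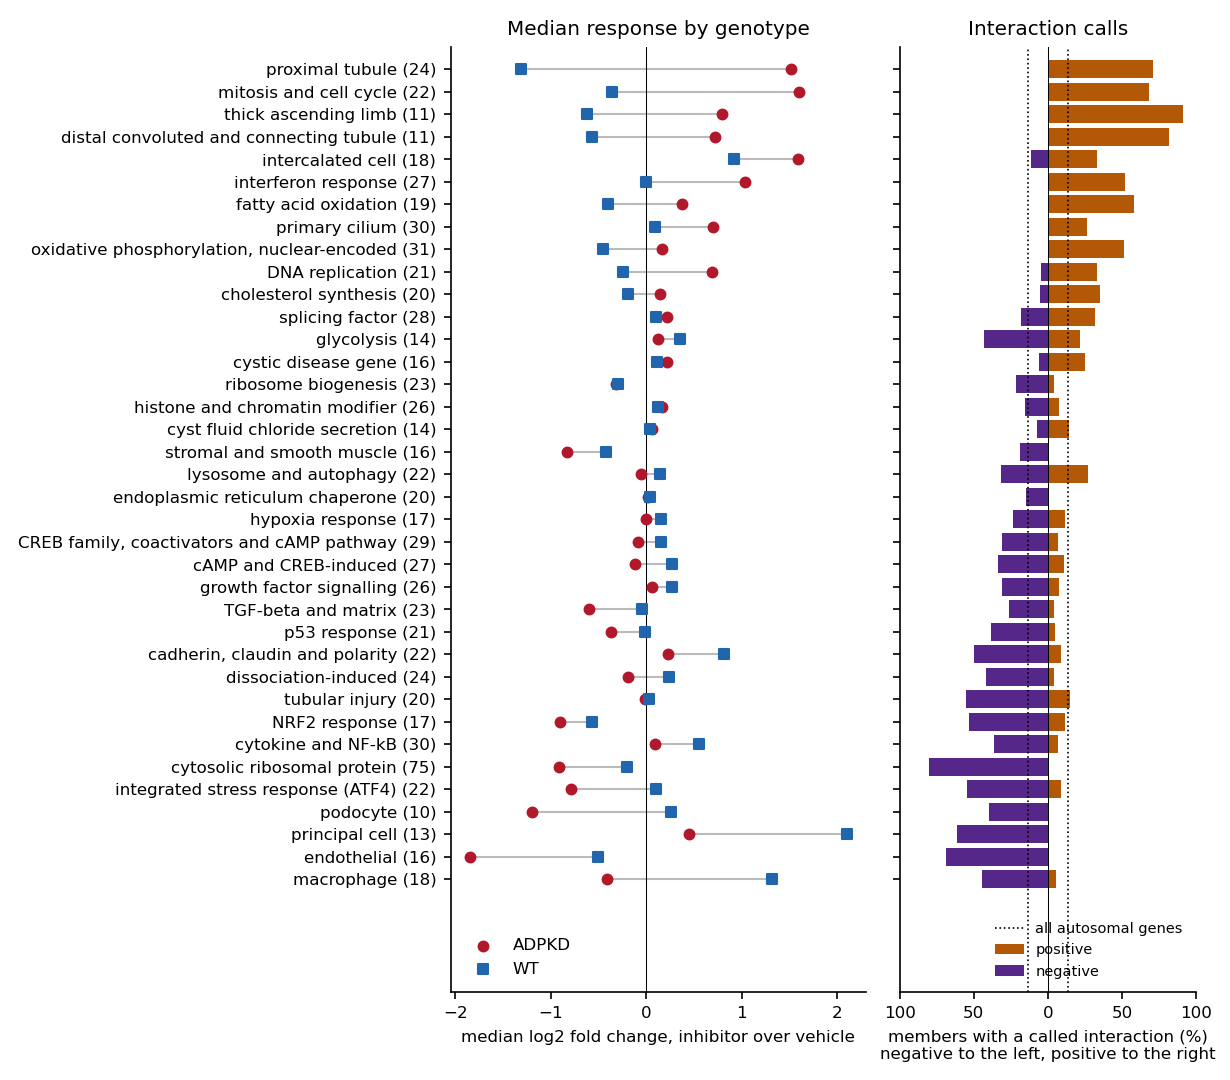
Left, median log2 fold change of inhibitor over vehicle in ADPKD (red circles) and WT cells (blue squares) for the 37 lists with at least 10 tested genes, whose number stands in brackets. Right, percent of members with a called positive or negative interaction, with dotted lines at 13.4% and 13.1%, the shares over all autosomal genes. The proximal tubule list has the highest median interaction and the macrophage list the lowest, and 60 of 75 ribosomal protein genes lie on the negative side.

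Transcript base composition moved with the interaction. Across 16715 genes the interaction correlated with the GC content of the longest transcript at Spearman -0.335, the response in ADPKD cells at -0.351 and the response in WT cells at 0.017, given as descriptions without a test. In the eighth of genes lowest in GC the median interaction was 0.39, with 24.6% positive and 3.25% negative calls, and in the highest eighth it was -0.56, with 2.92% positive and 29.8% negative calls. With a GC trend removed from each library, 3987 interactions passed, 2345 positive and 1642 negative, of which 3203 (71.6% of the 4475) were shared. Under that fit the proximal tubule list had 17 positive calls, the mitosis list 14, the ribosomal protein list 47 negative calls and the integrated stress list 10. The interaction shrank by over 1.5 times but still passed in Bbc3 (-1.76), Cdc42ep1 (-1.12), Ubtd1 (-1.16), Trib3 (-0.93), Tnfrsf12a (-0.91), Egr1 (-0.80), Vgf (-0.79), Gnas (-0.75), Hk1 (-0.70) and Ftl1 (-0.61). Whether the trend comes from the libraries or the cells was not tested.

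**Figure D5:**
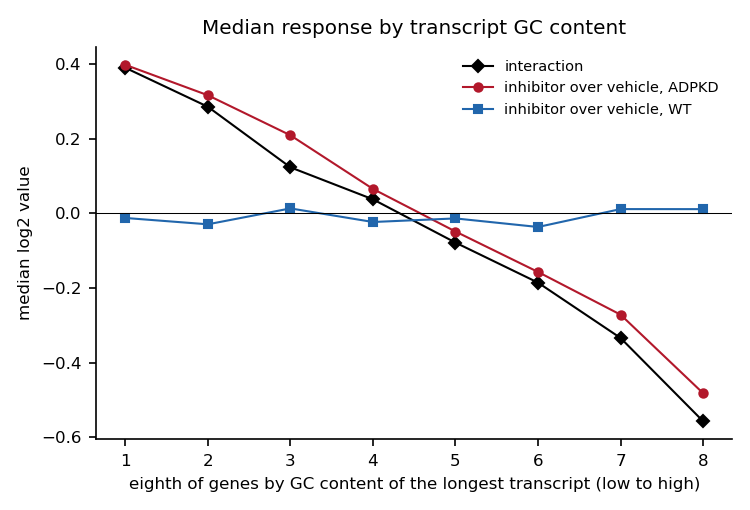
Median log2 values in 8 equal groups of genes ordered by transcript GC content, for the interaction (black), the response in ADPKD cells (red) and the response in WT cells (blue). The interaction and the ADPKD response fall across the groups, to -0.56 and -0.48 in the highest, while the WT response lies between -0.04 and 0.01.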

How the data were processed

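DBA-positive kidney cells of 4 groups (ADPKD or WT, inhibitor or vehicle) had 2 libraries each. Per the labels' protocols, oligo-dT-selected RNA was used; their text speaks of DBA-positive cells and, in 1 place, of whole kidney. Per the submitters' processing notes, HISAT2 2.1.0, featureCounts 1.6.0 and DESeq2 were used with build mm10. The deposited table holds raw gene counts, not normalized. Strand, annotation release and the handling of multiply mapped reads are not given in the sources used here, so antisense and overlapping genes cannot be told apart. Vehicle columns, which carry no treatment in their names, were matched to their samples by elimination. Symbols were placed with GENCODE M21 (53569, 96.9%) or RefSeq (788, 1.42%). The 37 rows of mitochondrially encoded genes hold 0 counts.

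Counts were analysed with edgeR 4.0.16 in R 4.3.3: filterByExpr (minimum count 10, total 15; 17440 genes kept, 599 of them not on the 19 autosomes or without a match), TMM scaling and 1 robust quasi-likelihood fit of the 4 groups with 4 residual degrees of freedom. Two-sided p-values were adjusted by Benjamini-Hochberg over all genes tested, at 0.05, and the model was tested on simulated data. Levels are CPM scaled by TMM and log2 values are given ± SE of the fit, with n = 2 in every group. Intervals for counting error are not given, and the floor of 3 counts covers counting error only, and only in the group at 0.

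The genes and the 38 lists were chosen with earlier results of these data known. Named genes were mostly picked by the size or p of their interaction, so separation of their libraries adds no support. Of 855 list members 830 were tested. Genes could be named if among the 12 largest interactions in each direction with a mean of 5 CPM or more and a call in all 8 fits without 1 library, the 4 smallest p in a list, the 4 smallest p in a response pattern with at least 5 CPM, or Creb1, Atf1, Crem, Pkd2 and Pkd1; unnamed gene models could not. Alternatives were RLE scaling, no filter, a filter of 5 CPM in 2 libraries, no robust estimation, the replicate number as a block, removal of a transcript GC or length trend (lowess, span 0.3), DESeq2 1.42.0, adjustment over autosomal genes alone, dropping each library and a 2-fold minimum. Figures were drawn with matplotlib 3.10.9.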

Additional observations from a re-analysis of the deposited data

Results flagged for a closer look

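The difference between the 2 responses was itself tested, and it passed for 4475 autosomal genes. The genes named in the report and the other observations whose interaction passed are given here with their log2 interaction. As above, alone means that the response in the other genotype did not pass, not that it was absent. Up in ADPKD cells alone were Lmo7 at 1.87, Trpv5 at 1.83, Clmn at 2.12, Ppt1 at 2.23, Kcnj1 at 2.02, Slc8a1 at 2.98, Kif11 at 3.19, Cdk1 at 3.09 and Top2a at 3.13. To the same kind belonged Pkhd1 at 1.21, Pole at 2.77, Kap at 7.80 and Cftr at 5.19. Down in ADPKD cells alone were Gadd45g at -1.89, Nudt18 at -3.12, Hr at -2.76, Ubtd1 at -1.86, Vegfa at -1.65, Cdkn1a at -1.47, Trib3 at -1.41, Bbc3 at -2.71 and Rpl18 at -1.11. To the same kind belonged Vgf at -1.64, Srxn1 at -0.99, Serpina3n at -3.58 and Plvap at -1.43. Up in WT cells alone were Krt18 at -1.87, Krt7 at -1.88, Coro2a at -2.46, Cdc42ep1 at -1.71, Cldn7 at -1.52, Slc2a1 at -1.36, Scnn1a at -1.73, Cxcl16 at -1.46 and Krt8 at -0.84. To the same kind belonged Lyz2 at -2.73, C1qa at -3.31 and Rhcg at -1.63. Down in WT cells alone were Spink1 at 2.13, Khk at 1.53, Slc12a3 at 1.28, Cldn10 at 1.65 and Gsta2 at 1.82. Up in ADPKD and down in WT cells were Slc34a1 at 4.69, Acsm2 at 4.89, Cyp2j5 at 5.69, Pdxk at 2.81, Slc13a1 at 2.97, Cubn at 2.87, Hadh at 2.19, Trpm6 at 2.09 and Gbp2 at 2.02. To the same kind belonged Ugt3a2 at 7.77, Egf at 2.34, Havcr1 at 3.08, Ifi44 at 2.88, Sdhc at 1.31, Acmsd at 6.86, Rsad2 at 1.42, Slc22a29 at 8.15 and Ugt3a1 at 9.11. To the same kind belonged Ugt2b38 at 9.84, Hmgcs1 at 1.46, Hao2 at 7.66 and Slc22a22 at 7.14. Down in ADPKD and up in WT cells were Csf1 at -2.89, Ptges at -2.34, Rab15 at -3.45, Sphk1 at -2.34, Cldn4 at -1.95, Fgfr1 at -1.75, Ddit3 at -2.13, Ppp1r15a at -1.66 and Cldn3 at -2.54. To the same kind belonged Gdf15 at -2.54, Hk1 at -1.09, Creb3l1 at -1.85, Egr1 at -1.24, Aqp3 at -2.39, Tra2a at -0.82 and Nr4a1 at -1.35. Up in both and further in ADPKD cells were Samd9l at 1.66, Slc4a1 at 4.35, Aqp6 at 1.43 and Cdc42 at 0.43. Down in both and further in ADPKD cells were Osgin1 at -2.13, Tnfrsf12a at -1.40, Ftl1 at -1.10, Rps19 at -1.16, Gnas at -1.22 and Flt1 at -0.94. Up in both and further in WT cells were Scnn1g at -2.29, Lif at -2.09 and St6gal1 at -1.23. With neither response called alone was Pkd2 at 0.43. Ugt2b38, Ugt3a1, Slc22a29 and Slc22a22 had 0 counts in vehicle-treated ADPKD cells, so their fitted values depend on the prior count. Against a floor of 3 counts over that group their interactions were 6.38, 5.70, 4.69 and 3.65. The counts of the other groups were taken as observed, so these are not lower bounds. Outside the autosomal genes, Xist stood at 17688 counts in inhibitor-treated WT replicate 2, against 1 and 6 in the vehicle-treated WT libraries. Groups of 2 libraries are too small for a test of single libraries that stand apart.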

How the results depend on the processing

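With 2 libraries a group, the counts depend on single libraries. Over the fits that leave out 1 library, interaction calls ran from 2922 to 4895, positive calls from 1512 to 2567 and negative calls from 1372 to 2328; responses ran from 4594 to 7514 in ADPKD and from 2321 to 4552 in WT cells, opposite responses from 403 to 866, responses in ADPKD alone from 1321 to 2538, and the correlation of the responses from 0.138 to 0.240. Interaction calls were lowest without vehicle-treated WT replicate 1 (2922), inhibitor-treated ADPKD replicate 2 (2951) and, for negative calls, inhibitor-treated ADPKD replicate 1 (1372); WT responses numbered 2321 without vehicle-treated WT replicate 1 and 2791 without replicate 2. Of the 4475 calls, 2325 passed with the same sign in all 8 of these fits. Without inhibitor-treated WT replicate 2, 4895 passed, 4014 of them shared. A 2-fold minimum left 2474 calls, 1291 positive and 1183 negative. Calls numbered 4486 with RLE scaling, 4829 without a filter, 4278 with a 5 CPM filter, 4435 without robust estimation, 4472 with the length trend removed and 4170 with DESeq2. Differences between replicates correlated between groups at -0.0421 to 0.0870, so replicate number carried no strong shared effect. These values cannot show that the libraries were unpaired. With the replicate number as a block 4438 passed, and 3976 with the GC trend removed as well. Col18a1, at -0.57 in the reported fit, was at 0.0725 with the GC trend removed (edgeR adjusted p = 0.766) and at 0.071 with the block added (adjusted p = 0.732), and the cause was not tested. Of 195 genes with a call that the naming rule allowed, most of them not named in the text, 14 lost it with the GC trend removed, 15 with the block added, 2 with DESeq2 and 4 to 18 without 1 library. Calls were fewer in genes under 5 CPM; depth itself was not varied.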

Other observations

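Gene families defined by their symbols, and the members named here, were looked at after the values had been seen, and they are described without a test. All but 1 of 8 tested guanylate-binding protein genes had a positive interaction (87.5%, against 13.4% over all autosomal genes), with medians of 1.4 in ADPKD and -0.76 in WT cells. Of 13 UDP-glycosyltransferase genes with a Ugt symbol 9 were positive and none negative. Of 23 organic ion carriers of the Slc22 family 12 were positive and none negative. Keratins lay on the other side: 10 of 21 were negative and none positive, with a median response of -0.12 in ADPKD and 0.81 in WT cells. Krt8, the partner of Krt18 in simple epithelia, had 4642 and 5045 CPM with the inhibitor and 5322 and 5218 CPM with vehicle in ADPKD cells, and 2907 and 2575 CPM with the inhibitor and 1698 and 1637 CPM with vehicle in WT cells (-0.84 ± 0.13, edgeR adjusted p = 0.00066). Of 11 annexins, which bind membrane phospholipids in the presence of calcium, 5 were negative and 1 positive (54.5% called, against 26.6%). Zinc finger genes named Zfp were below the background, with 15.8% of 341 called against 26.6%, and so were the proteasome genes with 18.9% of 37. The share called rose with expression, and the levels of these families were not compared with those of all genes.

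The metallothionein genes Mt1 and Mt2, whose products bind zinc and copper, fell in both genotypes with no called interaction. Mt1 had 311 and 317 CPM with the inhibitor and 509 and 448 CPM with vehicle in ADPKD cells, and 587 and 693 CPM with the inhibitor and 929 and 801 CPM with vehicle in WT cells; its response was -0.61 ± 0.11 in ADPKD (adjusted p = 0.000945) and -0.43 ± 0.11 in WT cells (adjusted p = 0.0122), and the interaction -0.17 ± 0.16 (adjusted p = 0.457). Mt2 had 1.95 and 2.104 CPM with the inhibitor and 20.5 and 14.5 CPM with vehicle in ADPKD cells, and 0.5301 and 2.28 CPM with the inhibitor and 18.1 and 15.8 CPM with vehicle in WT cells, with an interaction of 0.47 ± 0.60 (adjusted p = 0.613). The SE leaves room for a difference of either sign in both genes.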
